A study of Mus musculus with 20 samples.

Results

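The 77 genes described here encode potassium channel subunits, or carry a symbol of that group, and were chosen by name and level. They are the rows of either deposited count table whose symbol starts with Kcn, with Kcnip1 to Kcnip4, Kcnd2 and Kcnd3 left out, and whose mean reached at least 0.5 CPM (the raw count scaled by the total of its library) in at least 1 of 4 groups of libraries. Of 17880 genes listed in the tables, 85 had such a symbol, and 77 of these reached the level. The lowest members were Kcnk5, with a highest group mean of 0.670 CPM, and Kcnrg, at 0.900 CPM, and the nearest genes below the limit were Kcnq1, at 0.443 CPM, and Kcnd3os, at 0.365 CPM. In 75 of the 77 members the level was reached in all 4 groups, the exceptions being Kcne2 and Kcnk5.

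Total RNA was sequenced from 4 groups of 5 libraries, Ncs1-/- hippocampus, wild-type hippocampus, Ncs1-/- frontal cortex and wild-type frontal cortex. All groups are on the C57Bl6/J background, and neither age nor sex is given in the labels. The product of Ncs1, neuronal calcium sensor 1, binds calcium and is found mainly in neurons. The labels do not describe the allele, nor do they say whether each library is from a different animal. Replicate spread, and with it every p-value, may therefore be partly technical. Hippocampus libraries carry 1 lane code in their labels and stand in 1 table, and cortex libraries carry another code and stand in another table, so that region, lane and table cannot be told apart.

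Potassium channels carry the outward current that repolarizes a neuron and sets its resting potential. Voltage-gated (Kv) channels open on depolarization and shape the action potential. Inward rectifiers and K2P channels, whose subunits carry tandem pore domains, set the potential at rest. BK and SK channels are opened by calcium, and KCNQ channels carry the M current that muscarinic receptors suppress. Most pores are tetramers, and many pore subunits assemble with auxiliary or electrically silent subunits that change their gating or traffic. The A-type complex left out by the rule, Kcnd2, Kcnd3 and the KChIP genes Kcnip1 to Kcnip4, includes the KChIP proteins, which belong to the same family of calcium sensors as Ncs1.

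Depth lay between 16.6 M and 34.6 M counts per library. It was 28.5 ± 5.19 M in Ncs1-/- hippocampus, 22.6 ± 2.64 M in wild-type hippocampus, 18.5 ± 1.43 M in Ncs1-/- cortex and 21.2 ± 3.38 M in wild-type cortex (SD, n = 5 each). Levels below are CPM after TMM scaling over the 20 libraries. Ncs1 was at 279 to 329 CPM in Ncs1-/- hippocampus, against 427 to 471 CPM in wild-type hippocampus, and at 255 to 265 CPM in Ncs1-/- cortex, against 351 to 387 CPM in wild-type cortex. The genotypes thus did not overlap in either region, while reads over the gene remained in Ncs1-/- libraries. Most markers matched the labelled regions, with 5 of 6 dentate granule cell markers and 4 of 5 CA field markers higher in hippocampus in each genotype. Of 7 cortical layer markers, 5 were lower in hippocampus and 2 higher in each genotype. The 10 striatal markers (Drd1, Drd2, Penk and others) summed to 1141 to 1987 CPM in Ncs1-/- cortex libraries and 1083 to 1724 CPM in wild-type cortex libraries, so the libraries labelled frontal cortex also held striatal transcripts.

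Together the 77 genes took a smaller share of the counts in hippocampus than in cortex. Their summed level was 5684 ± 294 CPM in Ncs1-/- hippocampus, with a range of 5384 to 6139, against 6902 ± 192 CPM in Ncs1-/- cortex, with a range of 6613 to 7072. In wild type it was 5651 ± 196 CPM in hippocampus (5391 to 5793), against 6846 ± 339 CPM in cortex (6418 to 7249; SD, n = 5 each). No hippocampus library reached the level of a cortex library, and the genotype ranges overlapped within each region. In bulk tissue a lower level may come from fewer cells of a type or from less RNA per cell, and these cannot be told apart.

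Set per kilobase of exon, so that genes can be compared with each other, a few members stood far above the rest. In hippocampus, Kcnab2, a cytoplasmic beta subunit of Kv1 channels, stood at 112 CPM per kb in Ncs1-/- libraries and 119 in wild type, Kcna1, an axonal Kv1 pore subunit, at 65.2 and 63.6, and Kcnj3, a G-protein-gated inward rectifier subunit, at 45.01 and 44.7. In cortex, Kcna1 led at 77.8 CPM per kb in Ncs1-/- and 75.5 in wild type, followed by Kcnab2 at 68.9 and 71.95 and by Kcnj4, a strong inward rectifier, at 57.6 and 60.6. Kcnab2 overlaps Nphp4 on the other strand. Among libraries of a group the members varied by a median coefficient of variation of 11.3% in Ncs1-/- hippocampus, 11.5% in wild-type hippocampus, 8.42% in Ncs1-/- cortex and 10.7% in wild-type cortex. The same median over all 15310 tested genes was 10.3%, 8.84%, 7.98% and 8.99% in those groups.

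The region comparison asked which potassium channel genes differ between hippocampus and frontal cortex, and it was made within each genotype with edgeR's quasi-likelihood test on rounded counts, with Benjamini-Hochberg adjustment over all genes tested at 0.05. Most members differed, 53 of 75 in Ncs1-/- mice and 48 of 76 in wild type, where 38.8% and 39.5% of all genes tested did, and most of these were lower in hippocampus. In Ncs1-/- mice 42 of 75 tested members were lower in hippocampus, where 19.6% of all genes tested were lower, and 11 were higher, where 19.2% of all genes were higher. In wild type 39 of 76 were lower, against 20.7% of all genes, and 9 were higher, against 18.8% of all genes. The median log2 fold change (hippocampus over cortex) of the members was -0.34 in Ncs1-/- mice and -0.33 in wild type, beside 0.01 over all genes in each. Kcne2 and, in Ncs1-/- mice, Kcnk5 did not pass the filter on low counts.

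**Figure D1:**
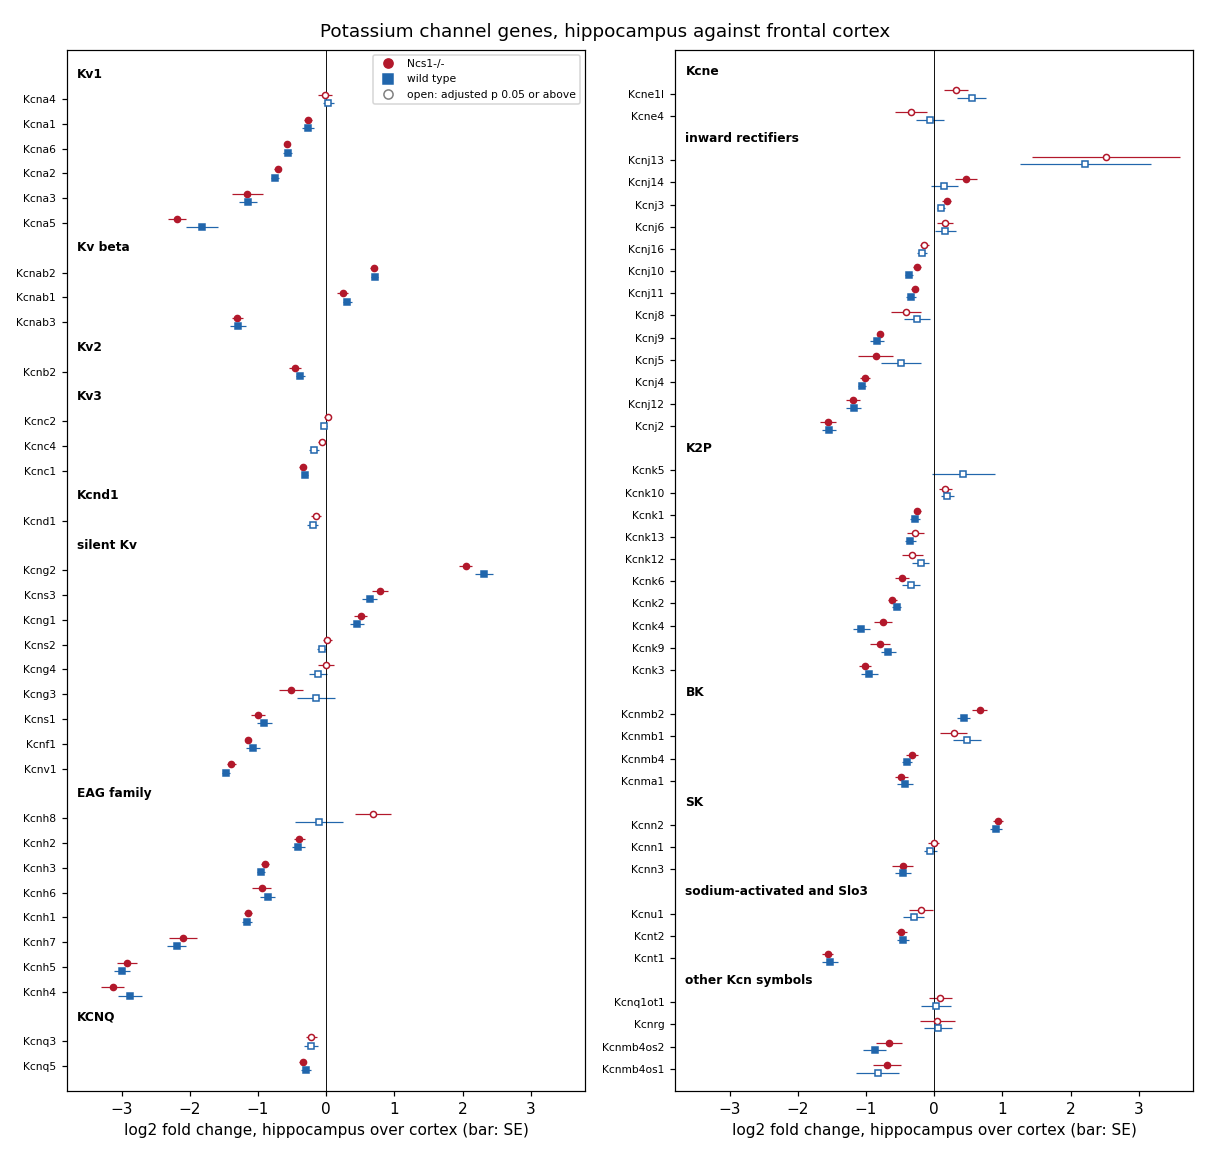
Log2 fold change (hippocampus over frontal cortex) of the tested potassium channel genes shown, each with its standard error, by channel family, in Ncs1-/- (red circles) and wild type (blue squares); filled symbols have an edgeR adjusted p below 0.05. Most filled symbols lie left of 0, the EAG genes Kcnh4 and Kcnh5 lie farthest left, and Kcng2 is the filled symbol farthest to the right.

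The 5 libraries of hippocampus lay wholly below the 5 of cortex for 37 members in Ncs1-/- mice and for 33 in wild type, and wholly above them for 8 and 7. Of all 15032 genes tested in Ncs1-/- mice, 2212 lay wholly below and 2270 wholly above. Of 14849 in wild type, 2138 lay wholly below and 2239 wholly above. Both directions together make 29.8% and 29.5% of all genes. In each genotype 15 members called lower were below a log2 fold change of -1, and 1 member called higher, Kcng2, was above 1. The share of all genes past these cuts was not counted, so these counts stand without a background. Beside these differences, the summed striatal markers were 194 to 252 CPM in Ncs1-/- hippocampus and 198 to 233 CPM in wild-type hippocampus, below the cortex sums given above, and all 10 were lower. Of the neuron markers Snap25, Rbfox3, Syt1 and Slc17a7, 3 of 4 were lower in hippocampus, with a median log2 fold change of -0.24 in Ncs1-/- mice and -0.28 in wild type. The part of these cell markers in the channel differences was not tested.

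The EAG family, voltage-gated channels with a cytoplasmic PAS domain, held the 2 members with the lowest fold changes in both genotypes, Kcnh5 and Kcnh4. It comprises eag (Kcnh1 and Kcnh5), erg (Kcnh2, Kcnh6 and Kcnh7), whose channels pass current mainly on repolarization, and elk subunits (Kcnh3, Kcnh4 and Kcnh8). In both genotypes 7 of the 8 genes were lower in hippocampus, and Kcnh8 did not pass the test. The upstream sequences of the 3 genes of the family with the lowest folds, 1 from each branch, are shown because these genes moved together. Each is the 250 bases before the gene's start in RefSeq (GRCm38.p6), given 5′ to 3′ on the gene's strand, with CG dinucleotides in capitals. They lie at chr12:75177333-75177582 (minus strand) for Kcnh5, chr11:100759779-100760028 (minus strand) for Kcnh4 and chr2:63184288-63184537 (minus strand) for Kcnh7.
Kcnh5: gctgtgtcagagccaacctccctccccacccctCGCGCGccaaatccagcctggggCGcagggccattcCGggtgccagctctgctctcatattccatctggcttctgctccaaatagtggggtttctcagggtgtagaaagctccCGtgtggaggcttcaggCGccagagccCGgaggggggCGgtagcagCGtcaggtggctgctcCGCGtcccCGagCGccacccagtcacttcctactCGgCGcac
Kcnh4: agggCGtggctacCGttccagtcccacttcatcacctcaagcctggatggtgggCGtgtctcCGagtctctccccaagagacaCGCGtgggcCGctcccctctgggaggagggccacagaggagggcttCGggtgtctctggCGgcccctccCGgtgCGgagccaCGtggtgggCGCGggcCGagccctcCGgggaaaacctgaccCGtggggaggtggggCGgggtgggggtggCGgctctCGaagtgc
Kcnh7: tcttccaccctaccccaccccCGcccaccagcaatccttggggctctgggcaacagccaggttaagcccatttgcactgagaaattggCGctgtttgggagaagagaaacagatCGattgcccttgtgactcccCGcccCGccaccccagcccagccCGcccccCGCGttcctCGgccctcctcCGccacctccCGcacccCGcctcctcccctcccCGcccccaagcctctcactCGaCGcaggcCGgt
The letters CG occurred 16 times before Kcnh5, 20 times before Kcnh4 and 16 times before Kcnh7, and the GC content was 65.6%, 70.8% and 67.6%. Over 32851 RefSeq windows of the same length the median was 6 occurrences and 52.4% GC, and 92.1% held at least 1 CG. Of all windows, 76.5% held at most 16 and 83.7% at most 20. A CG reads the same on both strands. Among the 54 members with an entry the median was 9.5 occurrences and 60.2% GC, and 98.1% held at least 1.

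Kcnh5 stood at 3.93, 6.02, 8.01, 5.67 and 5.78 CPM in the Ncs1-/- hippocampus libraries, against 41.3, 47.4, 44.7, 37.2 and 48.7 CPM in Ncs1-/- cortex. Wild-type hippocampus libraries had 4.11, 4.21, 4.35, 5.497 and 5.05 CPM, against 32.8, 35.6, 35.7, 33.7 and 46.6 CPM in wild-type cortex. Every cortex library lay several-fold above every hippocampus library, and wild-type cortex replicate 5 was the highest of its group. The log2 fold change was -2.91 (SE 0.15, edgeR adjusted p = 4.29e-09) in Ncs1-/- mice and -3.00 (SE 0.12, adjusted p = 1.70e-09) in wild type. Kcnh4 had 1.67, 1.83, 3.38, 1.94 and 2.43 CPM in Ncs1-/- hippocampus, against 15.7, 22.02, 21.99, 19.00 and 18.8 CPM in Ncs1-/- cortex, and wild-type hippocampus had 3.63, 2.13, 1.78, 2.01 and 2.97 CPM, against 13.8, 18.2, 18.02, 18.6 and 21.8 CPM in wild-type cortex. The groups were again far apart, at a log2 fold change of -3.13 (SE 0.17, edgeR adjusted p = 9.37e-09) in Ncs1-/- mice and -2.87 (SE 0.18, adjusted p = 6.32e-08) in wild type.

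Kcnh7, an erg subunit, spread more within hippocampus. Its 5 Ncs1-/- hippocampus libraries had 7.44, 14.1, 23.3, 15.1 and 15.7 CPM, against 55.4, 69.8, 67.3, 60.2 and 67.05 CPM in Ncs1-/- cortex. Wild-type hippocampus had 8.86, 13.5, 11.8, 14.2 and 13.5 CPM, against 46.7, 50.5, 62.05, 49.6 and 70.9 CPM in wild-type cortex. Ncs1-/- hippocampus replicate 1 was the lowest and replicate 3 the highest of its group, and neither came near cortex. The log2 fold change was -2.10 (SE 0.21) in Ncs1-/- mice and -2.19 (SE 0.14) in wild type, with edgeR adjusted p-values of 2.94e-06 and 8.27e-08. Summed over the 8 genes, hippocampus libraries had 156 to 202 CPM in Ncs1-/- mice and 169 to 190 CPM in wild type, against 397 to 451 CPM in Ncs1-/- cortex and 366 to 441 CPM in wild-type cortex. Replicates 1 and 3 of Ncs1-/- hippocampus marked the ends of their group in this sum too. The summed dentate granule markers had their lowest level in replicate 1, at 361 CPM, and their highest in replicate 3, at 531 CPM, but Tdo2 was highest in replicate 1, and C1ql2 was lowest in replicate 5 and highest in replicate 4. Summed CA field markers were highest in replicate 1, at 910 CPM, and oligodendrocyte markers lowest in replicate 3, at 3332 CPM. The part of these cell types was not tested.

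The remaining EAG genes differed less. Kcnh1, the eag partner of Kcnh5, had log2 fold changes of -1.14 (SE 0.06) in Ncs1-/- mice and -1.16 (SE 0.08) in wild type. Kcnh3, an elk subunit whose gene overlaps Mcrs1 on the other strand, had -0.90 and -0.95, Kcnh6 had -0.94 and -0.86, and Kcnh2, the erg gene that is best known from the heart, had -0.39 and -0.41. Kcnh8 was near the lower limit of the set, with group means of 0.939 ± 0.193 CPM in Ncs1-/- hippocampus, 0.618 ± 0.223 in wild-type hippocampus, 0.581 ± 0.204 in Ncs1-/- cortex and 0.671 ± 0.284 in wild-type cortex (SD, n = 5 each). Its fold changes of 0.68 (SE 0.26) and -0.11 (SE 0.35) did not pass the test.

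**Figure D2:**
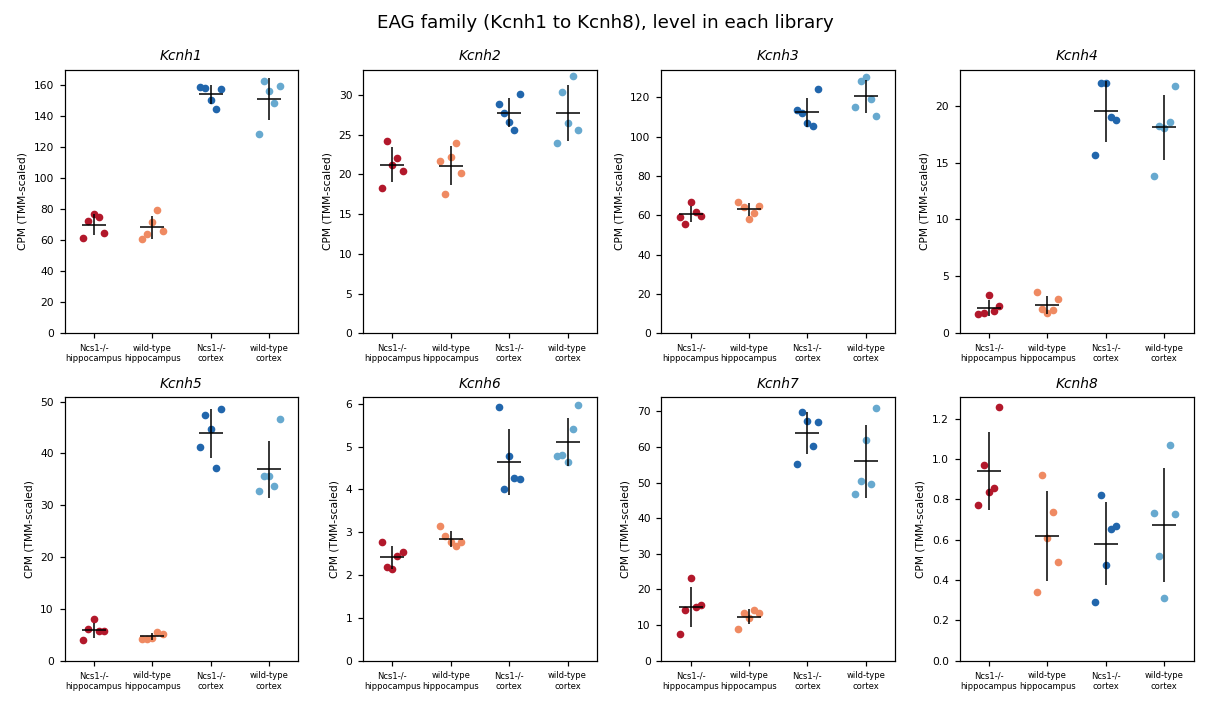
Level (CPM after TMM scaling) of each of the 8 EAG family genes in every library, by group, with the mean and SD of 5 libraries. In Kcnh5, Kcnh4 and Kcnh7 the hippocampus libraries of both genotypes lie well below all cortex libraries, while Kcnh8 overlaps between all groups.

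Kv1 pore genes and their beta subunits did not move as a block. Of the 6 Kv1 genes, 5 were lower in hippocampus in each genotype and Kcna4, the A-type member of the family, did not pass, at log2 fold changes of -0.02 and 0.03 in Ncs1-/- mice and wild type. Kcna2, an axonal delayed rectifier, averaged 374 ± 20.7 CPM in Ncs1-/- hippocampus, against 608 ± 33.8 CPM in Ncs1-/- cortex, and 360.3 ± 14.2 CPM in wild-type hippocampus, against 601 ± 47.3 CPM in wild-type cortex (SD, n = 5 each). The SDs are small beside the gap, and the fold changes were -0.71 (SE 0.05, edgeR adjusted p = 1.31e-07) and -0.75 (SE 0.06, adjusted p = 3.13e-07). Kcna5, a low-level Kv1 gene, had the largest fold of the family, -2.18 (SE 0.13) and -1.82 (SE 0.23). Its hippocampus libraries had 2.02 to 2.58 CPM in Ncs1-/- mice and 2.37 to 3.56 CPM in wild type, against 7.98 to 12.5 CPM in Ncs1-/- cortex and a wide 5.74 to 13.7 CPM in wild-type cortex. Kcna3, also known from T cells and microglia, had -1.15 and -1.15, Kcna6 -0.57 and -0.57, and Kcna1 -0.26 and -0.27, where the wild-type call was lost without cortex replicate 3 or 5 or hippocampus replicate 2 (edgeR adjusted p 0.0552 to 0.0675).

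The 3 Kv beta genes went in different directions. Kcnab2 had 702, 579, 637, 628 and 579 CPM in Ncs1-/- hippocampus, against 386, 384, 377, 369 and 408 CPM in Ncs1-/- cortex. Wild-type hippocampus had 613, 633, 766, 649 and 656 CPM, against 398, 394, 421, 411 and 382 CPM in wild-type cortex. Every hippocampus library was above every cortex library, with wild-type hippocampus replicate 3 set apart as the highest, and the fold changes were 0.69 (SE 0.06, edgeR adjusted p = 3.38e-07) in Ncs1-/- mice and 0.71 (SE 0.06, adjusted p = 6.64e-07) in wild type. Kcnab1, whose product inactivates Kv1 channels and whose gene overlaps A330015K06Rik and A730090N16Rik on the other strand, was higher, at 0.24 (SE 0.08) and 0.31 (SE 0.07), and its Ncs1-/- call was lost without cortex replicate 2, 3 or 5 or hippocampus replicate 3 (edgeR adjusted p 0.0554 to 0.0707). Kcnab3 was lower, with 25.8, 23.7, 24.5, 19.8 and 24.3 CPM in Ncs1-/- hippocampus, against 53.8, 61.3, 61.2, 52.3 and 61.5 CPM in Ncs1-/- cortex, and log2 fold changes of -1.30 (SE 0.08) and -1.29 (SE 0.12). The hippocampus and cortex libraries of Kcnab3 did not overlap in either genotype.

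Kv2 subunits form the main delayed rectifier of neuronal somata and proximal dendrites, and the electrically silent subunits (Kcnf, Kcng, Kcns and Kcnv genes) act in tetramers with them. The Kv2 gene Kcnb2 was lower in hippocampus, at log2 fold changes of -0.46 (SE 0.08, edgeR adjusted p = 0.000612) in Ncs1-/- mice and -0.38 (SE 0.07, adjusted p = 0.000914) in wild type.

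The silent subunits split by gene. In Ncs1-/- mice 3 of 9 were higher and 4 lower, and in wild type 3 were higher and 3 lower. Kcnv1 was lower, at -1.39 (SE 0.07) in Ncs1-/- mice and -1.47 (SE 0.06) in wild type, Kcnf1 at -1.15 and -1.07, and Kcns1 at -0.99 and -0.91. Kcng2 ran the other way, with 15.6, 15.6, 17.9, 16.4 and 14.9 CPM in Ncs1-/- hippocampus, against 3.37, 4.06, 3.78, 4.42 and 3.75 CPM in Ncs1-/- cortex, and 13.6, 19.1, 20.3, 17.96 and 16.9 CPM in wild-type hippocampus, against 2.64, 3.81, 3.82, 4.04 and 2.96 CPM in wild-type cortex. Hippocampus libraries stood far above cortex libraries without overlap, at log2 fold changes of 2.04 (SE 0.09, edgeR adjusted p = 1.23e-09) and 2.32 (SE 0.14, adjusted p = 4.18e-08). Kcns3 was higher, at 0.78 (SE 0.12) and 0.64 (SE 0.11), and Kcng1 at 0.50 (SE 0.09) and 0.45 (SE 0.10). Kcng3 was called lower in Ncs1-/- mice, at -0.51 (SE 0.18, edgeR adjusted p = 0.0367), and not in wild type, at -0.15 (SE 0.28). Kcns2 had 0.02 and -0.07 and Kcng4 -0.0037 and -0.12, without passing.

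**Figure D3:**
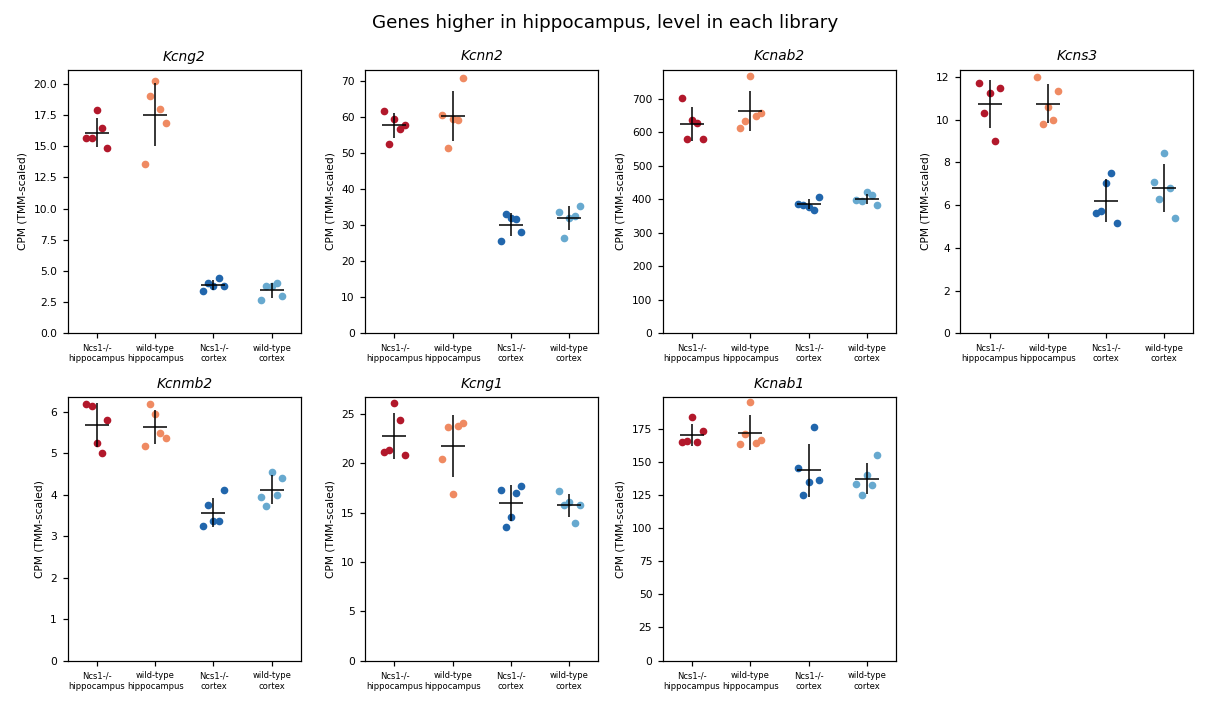
Level (CPM after TMM scaling) in every library of 7 potassium channel genes called higher in hippocampus in both genotypes, by group, with the mean and SD of 5 libraries. The hippocampus libraries of Kcng2, Kcnn2, Kcnab2, Kcns3 and Kcnmb2 lie above the cortex libraries of the same genotype without overlap.

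Kv3 channels repolarize fast-spiking neurons. Their gene Kcnc1 was lower, at -0.35 (SE 0.05) in Ncs1-/- mice and -0.31 (SE 0.04) in wild type. Kcnc2 had fold changes of 0.02 and -0.03 and Kcnc4 of -0.06 and -0.18, neither past the threshold. Interneuron markers, many of which belong to cells that use Kv3 channels, were lower in hippocampus for 4 of 6 genes, with a median of -0.38 in each genotype, and their part was not tested. Kcnd1, the Kv4 gene that the rule did not leave out, had -0.14 (SE 0.08) and -0.20 (SE 0.08) and did not pass, but was called in wild type with the replicate number as a block in the fit (-0.20, SE 0.07, edgeR adjusted p = 0.0483). Of the 6 genes of the A-type complex itself, 3 were higher and 3 lower in hippocampus in each genotype.

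Among the KCNQ genes, Kcnq3, a subunit of M channels, had a region fold change of -0.22 (SE 0.08) in Ncs1-/- mice and -0.22 (SE 0.10) in wild type and did not pass. With the same block it was called in wild type, at -0.23 (SE 0.06, edgeR adjusted p = 0.0124). Kcnq5, another M-channel gene, was lower in hippocampus, at -0.34 and -0.30.

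Strong inward rectifiers hold neurons such as striatal projection neurons near the potassium potential, and 3 of the 4 genes were lower in hippocampus. Kcnj2 had 8.36, 11.2, 14.5, 10.6 and 10.2 CPM in Ncs1-/- hippocampus, against 31.03, 31.5, 35.3, 32.7 and 30.3 CPM in Ncs1-/- cortex, and 9.54, 10.98, 9.45, 11.3 and 10.96 CPM in wild-type hippocampus, against 24.2, 29.5, 29.6, 30.3 and 37.1 CPM in wild-type cortex. The regions did not overlap, and the fold changes were -1.56 (SE 0.12, edgeR adjusted p = 1.99e-07) and -1.54 (SE 0.10, adjusted p = 1.17e-07). Kcnj12 was lower, at -1.20 (SE 0.10) and -1.18 (SE 0.11) and Kcnj4 at -1.01 (SE 0.07) and -1.06 (SE 0.06), while Kcnj14, the least abundant of the 4 per kilobase, was higher in Ncs1-/- mice at 0.47 (SE 0.16, edgeR adjusted p = 0.0377) and had 0.15 (SE 0.20) in wild type. The striatal marker sums given above lay in the same direction as Kcnj2, Kcnj12 and Kcnj4, and their part was not tested.

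G-protein-gated inward rectifiers (Kcnj3, Kcnj5, Kcnj6 and Kcnj9), which open downstream of inhibitory receptors, were uneven. Kcnj9 was lower, at -0.79 (SE 0.05) in Ncs1-/- mice and -0.84 (SE 0.10) in wild type, and Kcnj6 had 0.16 and 0.16 without passing. Kcnj3 was called higher in Ncs1-/- mice, at 0.18 (SE 0.06, edgeR adjusted p = 0.03397), and had 0.09 (SE 0.06) in wild type. Kcnj5, at 0.7303 ± 0.2101 CPM in Ncs1-/- hippocampus and 1.32 ± 0.345 CPM in Ncs1-/- cortex (SD, n = 5 each), was called lower in Ncs1-/- mice, at -0.86 (SE 0.26, adjusted p = 0.0174 by edgeR), against -0.49 (SE 0.29) in wild type. Kcnj10, the main astrocytic inward rectifier, was lower, at -0.26 (SE 0.06) and -0.37 (SE 0.06), and its partner Kcnj16 had -0.14 and -0.18 without passing. Of the ATP-sensitive pore genes, Kcnj11 was lower, at -0.28 and -0.34 and Kcnj8, known from pericytes, had -0.41 and -0.26 without passing.

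K2P genes were either lower in hippocampus or not past the threshold, with 6 of 9 tested lower in Ncs1-/- mice and 6 of 10 in wild type. The acid-sensitive Kcnk3, which overlaps Gm9899 on the other strand, was lower, at -1.01 (SE 0.08) and -0.95 (SE 0.13), and its relative Kcnk9 at -0.80 (SE 0.14) and -0.67 (SE 0.11). The mechanically gated Kcnk4 and Kcnk2 were lower, at -0.75 and -0.61 in Ncs1-/- mice and at -1.07 and -0.55 in wild type, while Kcnk10 of the same branch, which overlaps Gm40893 on the other strand, had 0.16 and 0.19 and did not pass. Kcnk1, the most abundant member of the family per kilobase, was lower, at -0.25 and -0.29. Kcnk13, a channel of microglia, was called in wild type at -0.35 (SE 0.08, edgeR adjusted p = 0.00375) and had -0.28 (SE 0.13) in Ncs1-/- mice. Kcnk12 had -0.32 and -0.20 without passing, and Kcnk5, tested in wild type alone, had 0.43 (SE 0.46). Kcnk6 was called in Ncs1-/- mice at -0.47 (SE 0.11) and had -0.34 (SE 0.14) in wild type.

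Calcium- and sodium-activated channels gave both directions. Kcnma1, the BK pore, was lower in hippocampus, at -0.48 (SE 0.09) in Ncs1-/- mice and -0.43 (SE 0.12) in wild type, as was its neuronal beta subunit Kcnmb4, at -0.32 and -0.40. Kcnmb2, the beta subunit that inactivates BK channels, was higher, at 0.67 (SE 0.11) and 0.43 (SE 0.10). Kcnmb4os1 and Kcnmb4os2 lie on the other strand of Kcnmb4. No source used here says whether counting used strand, so some reads may have been assigned to the wrong one of these 3 genes. Kcnmb4os2 was lower, at -0.66 and -0.87, and Kcnmb4os1 was called lower in Ncs1-/- mice, at -0.69 (SE 0.21), with -0.83 (SE 0.32) in wild type. Kcnmb1, a beta subunit of smooth muscle whose gene overlaps Kcnip1 on the other strand, had 0.29 and 0.48 and did not pass. Kcnn2, an SK pore of the afterhyperpolarization whose gene overlaps A330093E20Rik on the other strand, had 61.9, 52.7, 59.5, 56.9 and 57.9 CPM in Ncs1-/- hippocampus, against 25.5, 33.1, 32.1, 31.9 and 28.03 CPM in Ncs1-/- cortex, and 60.6, 51.6, 59.5, 59.3 and 70.98 CPM in wild-type hippocampus, against 33.7, 26.5, 31.98, 32.5 and 35.4 CPM in wild-type cortex. Hippocampus was above cortex in every library, at log2 fold changes of 0.93 (SE 0.07, edgeR adjusted p = 2.55e-07) and 0.90 (SE 0.09, adjusted p = 3.48e-06). Of the other SK genes, Kcnn3 was lower, at -0.46 and -0.46, with overlapping libraries and a Ncs1-/- call that was lost without cortex replicate 4 (edgeR adjusted p = 0.0794), and Kcnn1 had -0.01 and -0.06 and did not pass.

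Kcnt1, the Slack channel opened by sodium, had 34.9, 33.8, 36.7, 38.9 and 43.7 CPM in Ncs1-/- hippocampus, against 94.7, 118, 112, 110.3 and 119 CPM in Ncs1-/- cortex, and 42.4, 34.2, 29.9, 29.4 and 39.1 CPM in wild-type hippocampus, against 85.4, 109, 96.7, 88.4 and 120.3 CPM in wild-type cortex. No library of one region entered the range of the other, and the fold changes were -1.56 (SE 0.08, edgeR adjusted p = 4.28e-09) and -1.53 (SE 0.12, adjusted p = 4.02e-07). Its relative Kcnt2 was lower, at -0.48 (SE 0.08) and -0.46 (SE 0.08), and Kcnu1, the sperm channel Slo3, had -0.20 and -0.30 and did not pass, with 1.42 to 2.35 CPM in Ncs1-/- hippocampus, against 1.69 to 2.499 CPM in Ncs1-/- cortex. The Kcne subunits Kcne4 and Kcne1l had -0.34 and 0.32 in Ncs1-/- mice and -0.06 and 0.55 in wild type, and Kcnq1ot1 and Kcnrg, which overlaps Dleu2 on the other strand, had 0.09 and 0.05 in Ncs1-/- mice and 0.02 and 0.06 in wild type. None of these passed.

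The 2 genotypes gave nearly the same region calls, in separate libraries. Of 75 members tested in both, 47 were called in the same direction, 38 lower and 9 higher, and 0 in opposite directions. These are 88.7% of the Ncs1-/- calls and 97.9% of the wild-type calls. Over all genes, 81.7% of wild-type calls were also called in Ncs1-/- mice in the same direction. Kcnk13 was the member called in wild type alone, and Kcnj5, Kcng3, Kcnj14, Kcnmb4os1, Kcnk6 and Kcnj3 were called in Ncs1-/- mice alone. The calls of Kcng3, Kcnj14 and Kcnj3 were lost when any 1 of several libraries was left out, at edgeR adjusted p-values of up to 0.0786, 0.0972 and 0.0719, and that of Kcnj5 without Ncs1-/- cortex replicate 3 (adjusted p = 0.0541). In wild type, where same-numbered libraries deviated together, a replicate block added 7 calls and lost 0. Besides Kcnq3 and Kcnd1 these were Kcne1l (edgeR adjusted p = 0.0141), Kcnk6 (0.0184), Kcnj16 (0.0389), Kcnc4 (0.0456) and Kcnmb4os1 (0.0492), so that Kcnk6 and Kcnmb4os1 were then called in both genotypes. No member called in 1 genotype alone passed the test of the difference between genotypes, which is the interaction. Of 21 tested genes whose products bind, anchor or traffic potassium channels, 15 were lower and 2 higher in hippocampus in Ncs1-/- mice, and 14 lower and 1 higher in wild type. Over all genes tested, 19.6% were lower and 19.2% higher in Ncs1-/- mice, and 20.7% and 18.8% in wild type. Amigo1, the auxiliary subunit of Kv2 channels, was at -0.15 (SE 0.04) and -0.17 (SE 0.05), and Cntnap2, which clusters Kv1 channels beside the node of Ranvier, at -0.17 (SE 0.05) in Ncs1-/- mice, past the threshold, and -0.07 (SE 0.06) in wild type, not past it. Lgi1, a secreted protein that acts on Kv1 channels at synapses, was higher in both, at 0.57 (SE 0.04) and 0.51 (SE 0.06).

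Kcnj13 and Kcne2 were uneven among hippocampus libraries. Kcnj13, the inward rectifier of choroid plexus epithelium, had 1.01, 63.2, 0.334, 6.95 and 4.27 CPM in Ncs1-/- hippocampus and 1.26, 5.81, 0.842, 43.5 and 1.95 CPM in wild-type hippocampus. In cortex it had 6.33, 1.39, 2.41, 1.46 and 1.63 CPM in Ncs1-/- libraries and 4.11, 2.35, 1.003, 1.51 and 2.91 CPM in wild type. Replicate 2 of Ncs1-/- hippocampus and replicate 4 of wild-type hippocampus stood far above all other libraries. Kcne2, a small single-pass auxiliary subunit also present in choroid plexus, had 0.387, 29.1, 0.167, 4.27 and 0.286 CPM in Ncs1-/- hippocampus and 0, 0.532, 0.281, 17.4 and 0.244 CPM in wild-type hippocampus. In cortex it was at most 2.73 CPM in Ncs1-/- libraries and at most 0.104 CPM in wild type. The same hippocampus libraries were again the highest.

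Transthyretin (Ttr), the defining transcript of choroid plexus, had 28.9, 3119, 2.96, 319.6 and 11.3 CPM in Ncs1-/- hippocampus and 4.89, 18.3, 5.75, 2000.1 and 14.9 CPM in wild-type hippocampus, and its 2 highest libraries were those with the most Kcnj13 and Kcne2. Summed over 7 choroid plexus markers, the libraries ranged over 41.1 to 3642 CPM in Ncs1-/- hippocampus and 34.2 to 2362 CPM in wild-type hippocampus, against 11.7 to 263 CPM in Ncs1-/- cortex and 6.79 to 19.1 CPM in wild-type cortex. The cortex library with the most of both, Ncs1-/- replicate 1, also had the most Ttr of its group. The upstream windows of the 2 genes are shown for contrast with those of the EAG genes. They are the 250 bases before the start at chr1:87394730-87394979 (minus strand) for Kcnj13 and chr16:92292139-92292388 (plus strand, the first of 2 entries) for Kcne2, in RefSeq GRCm38.p6, with CG in capitals.
Kcnj13: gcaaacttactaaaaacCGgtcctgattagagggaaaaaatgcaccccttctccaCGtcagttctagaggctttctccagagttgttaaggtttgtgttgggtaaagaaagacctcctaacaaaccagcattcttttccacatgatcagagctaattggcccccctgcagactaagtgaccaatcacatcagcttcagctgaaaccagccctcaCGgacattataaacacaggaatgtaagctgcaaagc
Kcne2: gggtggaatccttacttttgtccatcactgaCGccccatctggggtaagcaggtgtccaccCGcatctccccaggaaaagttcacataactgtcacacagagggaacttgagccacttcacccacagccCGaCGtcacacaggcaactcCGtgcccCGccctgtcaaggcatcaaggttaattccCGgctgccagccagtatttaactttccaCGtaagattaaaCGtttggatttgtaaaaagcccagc
They held CG 3 times and 9 times, at a GC content of 45.2% and 52.4%, and 37.8% and 62.2% of all windows held at most that many.

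Kcnj13 overlaps Gigyf2 on the other strand. Its region fold changes of 2.52 (SE 1.08) in Ncs1-/- mice and 2.21 (SE 0.96) in wild type did not pass, at edgeR adjusted p-values of 0.0848 and 0.0858. In Ncs1-/- mice it was called higher without hippocampus replicate 1 (2.84, edgeR adjusted p = 0.0428) or 3 (2.83, 0.0344). In wild type it was called higher without hippocampus replicate 1 (2.50, edgeR adjusted p = 0.0449) or 3 (2.51, 0.0459). Without the 3 hippocampus libraries with the most Ttr (Ncs1-/- replicates 2 and 4, wild-type replicate 4) the region fold changes were -0.45 (SE 0.68) and 0.06 (SE 0.52). Ncs1-/- cortex replicate 1, at 6.33 CPM of Kcnj13, stayed in. The 3 libraries left out also had the most Kcnj13 of all hippocampus libraries, so a fall was set by their choice. The genotype fold change of Kcnj13 in hippocampus was 0.48 (SE 1.23), and -0.35 (SE 0.78) without those libraries. Without them 49 members in Ncs1-/- mice and 49 in wild type were called between regions, beside 53 and 48 with all libraries. The share of all genes called was then 31.3% in Ncs1-/- mice and 37.0% in wild type, beside 38.8% and 39.5% with all libraries.

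**Figure D4:**
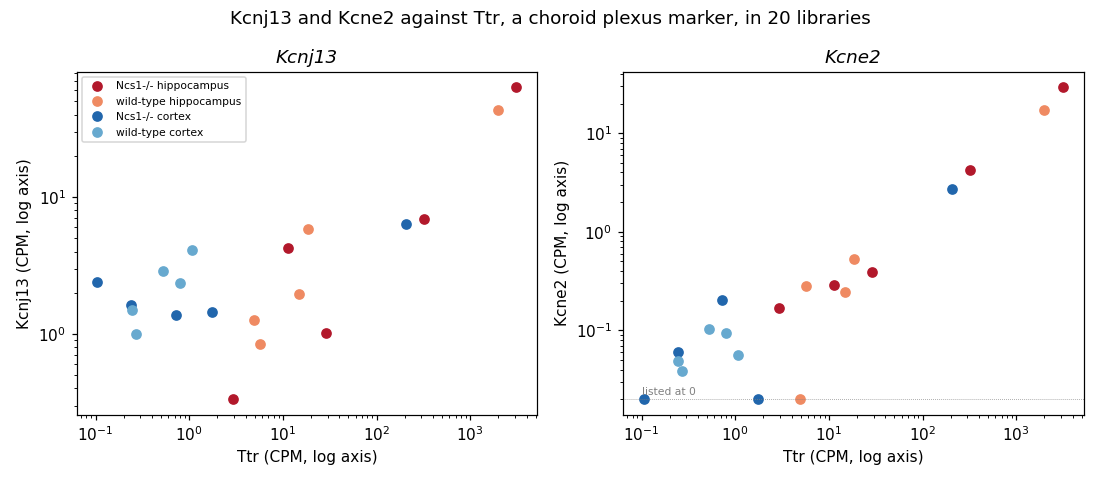
Level of Kcnj13 (left) and Kcne2 (right) against the level of Ttr in each of the 20 libraries, in CPM after TMM scaling on log axes. The 2 hippocampus libraries with the most Ttr, Ncs1-/- replicate 2 and wild-type replicate 4, have the most Kcnj13 and Kcne2.

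The genotype comparison asked whether loss of Ncs1 changes the level of these channel genes. None passed the test in either region. In hippocampus 0 of 76 tested members were called, where 4 of 15042 genes were, which is 0.0266% of all genes tested. In cortex 0 of 75 were called, where 4 of 14823 genes were, which is 0.027%. At an unadjusted p below 0.05, 3 members in hippocampus and 14 in cortex had a difference, beside 3.78% and 14.8% of all genes, and DESeq2 and limma-voom called 0 members in each region. Over all genes DESeq2 called 6 of 15042 in hippocampus (0.0399%) and 169 of 14823 in cortex (1.14%). The median log2 fold change (Ncs1-/- over wild type) of the members was -0.00055 in hippocampus and -0.00973 in cortex, beside 0.00698 and 0.00186 over all genes.

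**Figure D5:**
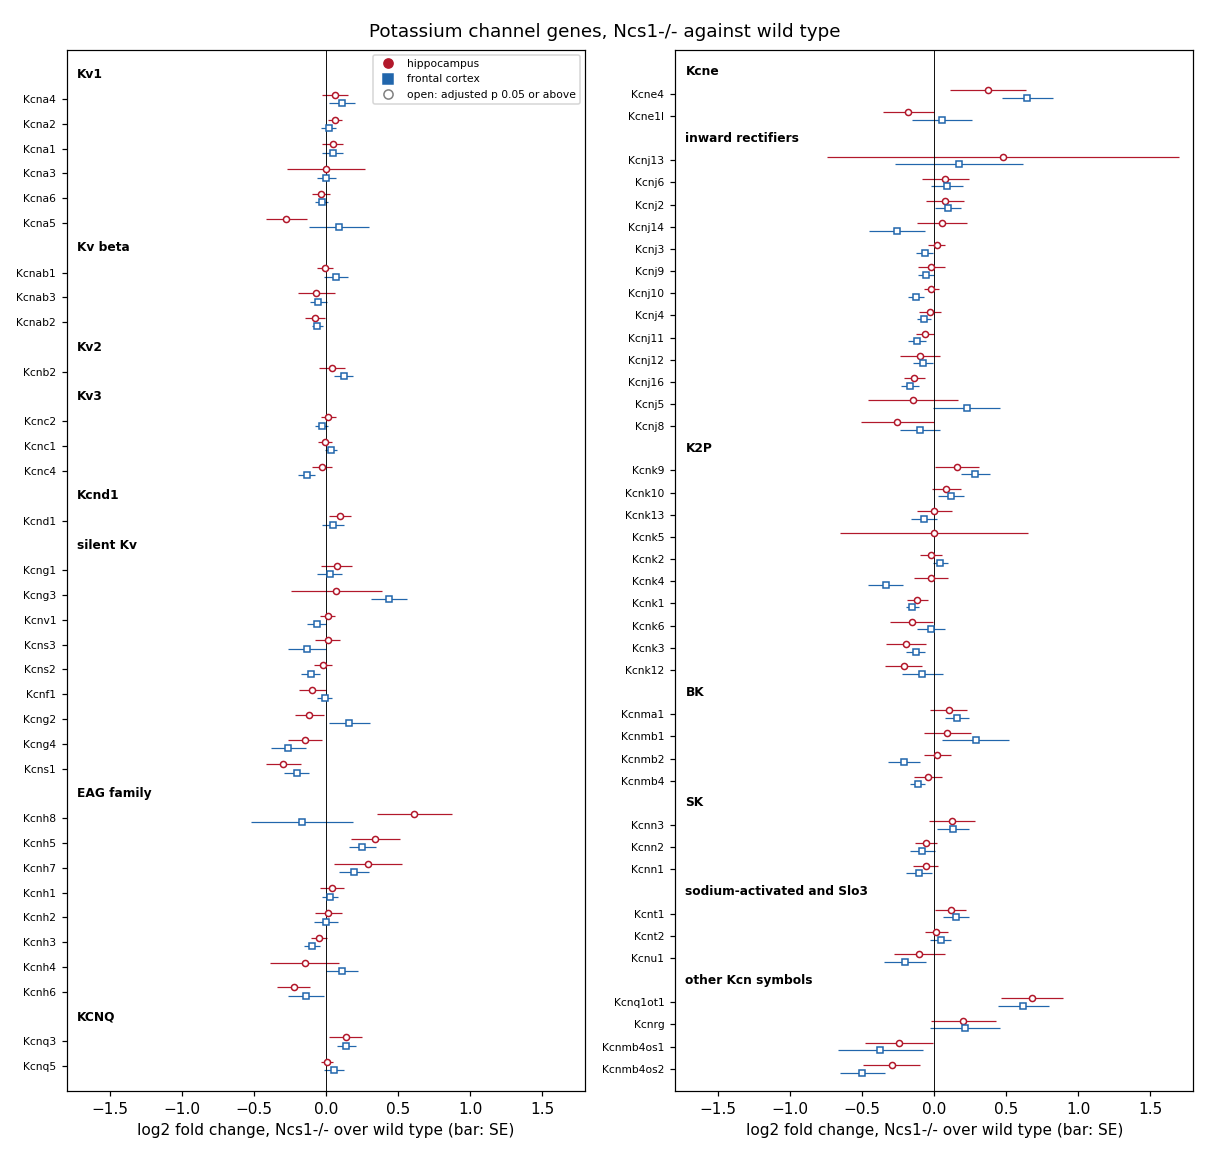
Log2 fold change (Ncs1-/- over wild type) of the tested potassium channel genes shown, each with its standard error, by channel family, in hippocampus (red circles) and frontal cortex (blue squares); open symbols have an edgeR adjusted p of 0.05 or above. All symbols are open, most lie within 0.2 of 0, and Kcnq1ot1 lies at 0.68 in hippocampus and 0.62 in cortex.

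The estimated fold changes were small for most genes. In hippocampus 62 of 76 members were within 0.2 of 0 on the log2 scale, with a median SE of 0.11, and in cortex 59 of 75, with a median SE of 0.09. For Kcna1 the fold change was 0.05 (SE 0.07) in hippocampus and 0.04 (SE 0.07) in cortex, and for Kcnma1 0.10 (SE 0.13) and 0.16 (SE 0.08). Kcnd1, the Kv4 gene among the members, had 0.10 (SE 0.08) and 0.05 (SE 0.08). The lack of a call does not show that the levels were equal.

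In cortex the 6 members with the smallest p were Kcne4, Kcng3, Kcnq1ot1, Kcnk1, Kcnmb4os2 and Kcnk9. Kcne4, an auxiliary subunit that inhibits Kv1 channels, had 1.57, 1.899, 1.78, 1.86 and 1.997 CPM in Ncs1-/- cortex, against 1.35, 1.41, 0.926, 1.02 and 1.14 CPM in wild-type cortex. It was the only member whose Ncs1-/- cortex libraries all lay on one side of the wild-type libraries, where 2.17% of all genes tested did so, and its fold change was 0.65 (SE 0.17, edgeR adjusted p = 0.219). Kcng3, a silent subunit, had 4.82, 5.44, 5.04, 5.38 and 4.901 CPM in Ncs1-/- cortex, against 3.32, 3.63, 3.97, 3.17 and 4.83 CPM in wild-type cortex. Only wild-type replicate 5 reached the Ncs1-/- range, and the fold change was 0.44 (SE 0.12, edgeR adjusted p = 0.227).

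Kcnk9, an acid-sensitive K2P pore, had 96.7, 123, 117, 100.03 and 123 CPM in Ncs1-/- cortex, against 82.5, 85.5, 83.96, 88.2 and 120.3 CPM in wild-type cortex. Again wild-type replicate 5 alone entered the Ncs1-/- range, and the fold change was 0.29 (SE 0.10, edgeR adjusted p = 0.262). Kcnk1 was the most precisely measured of the 6, at -0.15 (SE 0.04, edgeR adjusted p = 0.2303), with 91.6 to 96.95 CPM in Ncs1-/- cortex, against 94.2 to 111 CPM in wild-type cortex. Kcnmb4os2 had -0.50 (SE 0.16) and overlaps Kcnmb4, which had -0.12 (SE 0.05). Without wild-type cortex replicate 5, 4 members were called, all higher in Ncs1-/- cortex, namely Kcng3, Kcnh5, Kcnk9 and Kcnq1ot1, where 563 genes, or 3.77% of those tested, were called. Their adjusted p-values by edgeR were then 0.0304 for Kcng3, 0.0193 for Kcnk9 and 0.0384 for Kcnq1ot1, so that the result for these genes turns on that library. Fold changes across all genes followed exonic length with a Pearson correlation across genes of 0.22 in cortex and 0.19 in hippocampus, and the members' median exonic length of 4508 bases was close to 4498.5 bases over the genes tested in cortex. In a refit with this length trend removed, 0 members were called in each region. No gene named for a genotype comparison changed sign in it. The refitted values of single members are not given here. All 10 striatal markers had positive genotype fold changes in cortex, with a median of 0.21 and 0 called. Their summed level was 1141 to 1987 CPM in Ncs1-/- cortex and 1083 to 1724 CPM in wild-type cortex, and the part of striatal tissue was not tested.

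Kcnq1ot1, the imprinted long noncoding RNA transcribed against Kcnq1, had the largest fold change of any member in hippocampus. It had 75.1, 45.1, 57.8, 65.6 and 44.3 CPM in Ncs1-/- hippocampus, against 23.4, 34.5, 26.2, 49.3 and 46.5 CPM in wild-type hippocampus. In cortex it had 51.9, 56.1, 63.3, 62.5 and 35.3 CPM in Ncs1-/- libraries, against 28.7, 45.6, 28.2, 26.98 and 46.5 CPM in wild type. The Ncs1-/- libraries were mostly above the wild-type libraries, and the groups overlapped in both regions. The fold change was 0.68 (SE 0.21, edgeR adjusted p = 0.991) in hippocampus and 0.62 (SE 0.18, edgeR adjusted p = 0.2302) in cortex. Its exonic length of 93092 bases was the greatest of the members, and Kcnq1 itself, on the other strand, was below the level rule.

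In hippocampus the smallest p-values after Kcnq1ot1 belonged to Kcns1, Kcnh8, Kcnh5, Kcna5 and Kcnh6. Kcns1, a silent subunit, had -0.30 (SE 0.12), with 6.48 to 9.13 CPM in Ncs1-/- hippocampus, against 7.58 to 11.5 CPM in wild-type hippocampus, ranges that overlap. Kcnh8 had 0.61 (SE 0.26), Kcnh5 0.34 (SE 0.17), Kcna5 -0.28 (SE 0.14) and Kcnh6 -0.23 (SE 0.12). All had an adjusted p of 0.991 in edgeR. No member's libraries were separate between genotypes in hippocampus, where 0.439% of all genes tested were.

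Of the members within 35 Mb of Ncs1 on chromosome 2, Kcnt1 lies 5.33 Mb, Kcnj3 24.1 Mb and Kcnh7 31.4 Mb away. Kcnt1 had a fold change of 0.12 (SE 0.11) in hippocampus and 0.15 (SE 0.09) in cortex, Kcnj3 of 0.02 (SE 0.06) and -0.07 (SE 0.06), and Kcnh7 of 0.29 (SE 0.24) and 0.19 (SE 0.10). None passed the test.

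The interaction tested whether the genotype difference itself differs between regions, in 1 fit over the 20 libraries. It called 0 of 77 members and 0 of 15310 genes, which is 0%, by edgeR. An unadjusted p below 0.05 was found for 0 members and for 214 genes, or 1.4% of all genes tested. DESeq2 called 1 gene in all and 0 members. The estimates, given as hippocampus minus cortex of the log2 genotype fold change, were 0.78 (SE 0.44) for Kcnh8, 0.30 (SE 0.17) for Kcnk4, -0.29 (SE 0.17) for Kcng2, 0.23 (SE 0.14) for Kcnmb2, -0.37 (SE 0.28) for Kcna5 and 0.10 (SE 0.08) for Kcnj10, the 6 with the smallest p. The median over the members was -0.00168, beside -0.00178 over all genes.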

How the data were processed

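The 20 libraries were made from total RNA of 2 mouse brain regions after RNeasy extraction, per the labels' protocols. The authors deposited expected counts per gene, unscaled, in 1 table per region; 22.6% to 27.3% of a library's values were over 0.001 from a whole number. STAR 2.7.3a, Partek and mm10 are named per the submitters' processing notes. For the annotation, the strand setting and any filters, the sources used here say nothing. Expected counts were rounded and tested in edgeR 4.0.16 (R 4.3.3) by the quasi-likelihood test, after filterByExpr and scaling by TMM, and p-values were adjusted over all genes tested (Benjamini-Hochberg, 0.05). SEs come from the fold change and F statistic. Fits were also run on simulated counts drawn independently for each library, and the outcome is not given here. Exonic lengths are those of GENCODE M21 by symbol, and overlaps come from the gene positions and strands deposited with the counts. Depth was 16.6 M to 34.6 M counts per library. The lowest chi-square per degree of freedom between libraries of a group was 3.45, so none counted as a duplicate.

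The members and lists were chosen with earlier results of these data known. The naming rule took members called by genotype or interaction, or else the 6 with the smallest p, then in each family the 3 with the smallest p among wild-type region calls and 1 uncalled member, 4 members called in 1 genotype, members within 35 Mb of Ncs1, and the 3 highest levels per kb in each region. Most other members are named to account for the set, after their values were seen, and the results of some members are not reported here. In wild type, hippocampus and cortex libraries with the same number deviated together (correlations 0.12 to 0.43, 5 of 5 pairs over 0.1), so the numbers may pair the samples. Alternatives were other scalings, DESeq2 1.42.0, limma-voom (limma 3.58.1), other filters, a replicate block, left-out libraries, 1 fit of all libraries, a length trend removed (lowess span 0.3), and membership at 1 CPM.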

Additional observations from a re-analysis of the deposited data

Results flagged for a closer look

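In 18 of the groups of 5 libraries tested, the highest or lowest library stood apart from the other 4 (its gap to the nearest was more than 0.71 of the group's range, Dixon's limit). These are 7.26% of 248 groups over 62 genes, and chance alone sets about 1 in 20 apart. Levels are CPM after TMM scaling.

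Among the choroid plexus channel's libraries, Kcnj13 was set apart at 63.2 CPM in Ncs1-/- hippocampus replicate 2, at 43.5 CPM in wild-type hippocampus replicate 4 and at 6.33 CPM in Ncs1-/- cortex replicate 1. These are the libraries with the most Ttr of their groups. Kcnt2 was also set apart in wild-type hippocampus replicate 4, at 51.7 CPM.

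In wild-type hippocampus, replicate 1 was set apart for Kcna6 at 110.03 CPM, Kcnab3 at 34.7 CPM and Kcnk3 at 22.5 CPM. Replicate 2 was set apart for Kcna4 at 39.2 CPM, and replicate 3 for Kcnab1 at 196 CPM and Kcnab2 at 766 CPM. In Ncs1-/- hippocampus, replicate 3 was low for Kcna6 at 83.0 CPM, and replicate 5 was high for Kcnmb1 at 1.83 CPM.

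In wild-type cortex, replicate 5 was high for Kcnh5 at 46.6 CPM, Kcnk9 at 120.3 CPM and Kcna3 at 13.0 CPM. It is the library without which 4 members were called between genotypes. Replicate 3 was high for Kcnc2 at 154 CPM and replicate 1 for Kcnmb4os1 at 2.34 CPM. In Ncs1-/- cortex, Kcnk5 was high in replicate 5 at 0.605 CPM.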

How the results depend on the processing

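The count of members called between genotypes in cortex was 0 under every alternative except without wild-type cortex replicate 5, where it was 4; over the left-out libraries it ranged from 0 to 4. In hippocampus and for the interaction it was 0 throughout, with or without the replicate block, other scalings, DESeq2, limma-voom, and other filters. Removal of the length trend was run for the genotype comparisons only and gave 0 in each region. Between regions 48 to 53 members were called in Ncs1-/- mice and 48 to 50 in wild type over the left-out libraries. Over all genes, 5122 to 5981 were called in Ncs1-/- mice and 5352 to 5786 in wild type in those fits. With the replicate number as a block the counts were 55 in Ncs1-/- mice and 55 in wild type, against 53 and 48 without, and 0 for both genotype comparisons and the interaction. The block fits called 41.6% and 44.6% of all genes between regions, against 38.8% and 39.5% without. In Ncs1-/- mice the block added the calls of Kcnh8, Kcnk13 and Kcnq3 (edgeR adjusted p 0.0496, 0.0402 and 0.00510) and lost that of Kcnj14 (0.0554); the 7 calls it added in wild type stand with the region comparison. Same-numbered libraries correlated at -0.16 to 0.22 between Ncs1-/- hippocampus and cortex, at -0.03 to 0.35 between genotypes in hippocampus and at -0.08 to 0.17 between genotypes in cortex, so the numbers were not taken to pair those samples. Each library correlated best with its own number in 3, 2 and 1 of 5 pairs there, against 4 of 5 between regions in wild type. The correlation was over 0.1 in 4, 4 and 1 of 5 pairs there, against 5 of 5 in wild type. These measures do not settle which samples are paired.

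Of 3020 values of single genes under an alternative, 2942 kept direction and side of the threshold, 41 lost a call, 13 gained one and 24 changed sign. In Ncs1-/- mice the region call of Kcng3 was lost without any 1 of the cortex replicates or of hippocampus replicates 1, 2 and 4 (edgeR adjusted p 0.0522 to 0.0786), that of Kcnj14 without cortex replicates 1, 2, 3 or 5 or hippocampus replicates 1, 2, 4 or 5 (0.0507 to 0.0972), and that of Kcnj3 without cortex replicates 1, 3 or 4 or hippocampus replicates 3, 4 or 5 (0.0511 to 0.0719). That of Kcnab1 was lost without cortex replicates 2, 3 or 5 or hippocampus replicate 3 (0.0554 to 0.0707), that of Kcnj5 without cortex replicate 3 (0.0541) and that of Kcnn3 without cortex replicate 4 (0.0794). In wild type the call of Kcna1 was lost without cortex replicates 3 or 5 or hippocampus replicate 2 (0.0552 to 0.0675). Without the hippocampus libraries with the most Ttr, Kcng3, Kcnj14, Kcnmb4, Kcnmb4os1, Kcnmb4os2 and Kcnab1 lost their calls in Ncs1-/- mice (adjusted p 0.0510 to 0.157). There, too, Kcng3 (0.105) and Kcnmb4os1 (0.0532) lost theirs with all 20 libraries in 1 fit, and Kcnmb4os1 in DESeq2 (0.0532). Kcnd1 gained a wild-type call with all 20 libraries in 1 fit (0.0403) and without the libraries with the most Ttr (0.0267). Kcnmb1 gained a wild-type call without cortex replicate 1 (edgeR adjusted p = 0.0419). Kcnj13 gained region calls in both genotypes without hippocampus replicate 1 or 3 (edgeR adjusted p 0.0344 to 0.0459).

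The changes of sign concern genes that did not pass the test, and the cause was not tested. For Kcnj13 the genotype fold change in hippocampus was -0.0728 in limma-voom, -0.35 without the libraries with the most Ttr, and -1.78 to 2.63 over the left-out libraries, and its region fold change in Ncs1-/- mice was -0.45 without the libraries with the most Ttr. For Kcnj3 the genotype fold change in hippocampus ranged from -0.0286 to 0.0451 over the left-out libraries. The wild-type region fold change ranged from -0.0264 to 0.0654 for Kcna4, from -0.0531 to 0.00214 for Kcnc2 (0.00209 with total-count scaling), from -0.155 to 0.0357 for Kcne4, from -0.387 to 0.0323 for Kcng3, from -0.31 to 0.14 for Kcnh8, from -0.0445 to 0.683 for Kcnk5, from -0.12 to 0.15 for Kcnq1ot1 (-0.12 without the libraries with the most Ttr) and from -0.112 to 0.0208 for Kcnn1. Depth limits the lowest members, such as Kcnk5, Kcnh8 and Kcne2, whose levels were near 1 CPM or below in most libraries.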
